A study of Mus musculus with 18 samples.

Results

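The RNA of pro-B cells that lack the transcription factor EBF1 was compared with that of wild-type pro-B cells over all autosomal genes, 3 Ebf1-KO libraries against 3 WT libraries. All cells came from mouse fetal liver on the C57BL6/J background. The Ebf1-KO group was Ebf1-/- and the WT group carried no stated alteration. Both groups were grown on OP9, a mouse stromal cell line, with interleukin-7, KIT ligand and FLT3 ligand, so that stroma RNA can be present in either. Of the 24072 genes in the table, 22952 lay on autosomes. Of these, 12436 had enough reads to be tested, 10516 did not, and 5959 had no read in any of the 6 libraries. The other 1120 genes, on the sex chromosomes and elsewhere, are not described. The series also held 3 RNA libraries from Pax5-deficient cells, which shared in the estimate of spread and whose values are given only beside a few genes.

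EBF1 (early B cell factor 1) is a DNA-binding protein that commits lymphoid progenitors to the B lineage. It binds a palindromic site, opens chromatin there and activates genes of the pre-B cell receptor together with Pax5, which encodes the factor that maintains B cell identity. Progenitors without EBF1 are known to keep the capacity to enter other blood lineages, and they can be grown for long periods on stroma.

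Levels below are exon reads per 10000000 mapped reads, and a value with ± is a mean with its SD over 3 libraries. The median log2 fold change of all tested genes, Ebf1-KO over WT, was 0.31. The share of mapped reads that fell in exons was 60.5 to 69.8% in Ebf1-KO and 47.0 to 59.3% in WT. Every log2 fold change below was computed on value + 1 and is given less that median. A gene was said to have risen or fallen when the limma adjusted p was under 0.05 and the change was at least 2-fold from the median. The adjusted p tests the change before the median is taken off. Libraries held 16504569 to 40482128 exon reads in Ebf1-KO and 15639355 to 37417506 in WT. Nothing in the labels says whether libraries of a group came from separate embryos or cultures, so the p-values measure only the spread between these samples. In bulk RNA, fewer cells of a type and less RNA per cell cannot be told apart.

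Of the tested genes 26.8% were called in either direction. In Ebf1-KO 1920 autosomal genes rose (15.4% of those tested) and 1413 fell (11.4%), and 9103 were not called. Counts for each list below are to be read beside these shares. Changes over 4-fold numbered 1095 upward and 733 downward, those over 16-fold 426 and 282, and those over 64-fold 153 and 113. The groups did not overlap in 1919 of the 1920 risen genes and in 1388 of the 1413 fallen genes. Over all tested genes, the share with every Ebf1-KO library above every WT library was 48.7%, and the share with every one below was 15.7%. Many genes were nearly silent in either genotype: 143 were below 1 in every WT library with an Ebf1-KO mean over 50, and 58 were below 1 in every Ebf1-KO library with a WT mean over 50. Risen genes held 9.58 to 10.03% of exon reads in Ebf1-KO libraries and 2.22 to 2.36% in WT libraries. Fallen genes held 2.56 to 2.69% in Ebf1-KO and 10.3 to 11.1% in WT. Risen genes made up 12.3 to 18.95% and fallen genes 8.48 to 15.96% of the tested genes on each chromosome. Log2 values correlated between Ebf1-KO and WT libraries with r from 0.80 to 0.81 across genes, and with r of at least 0.99 within either group.

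**Figure D1:**
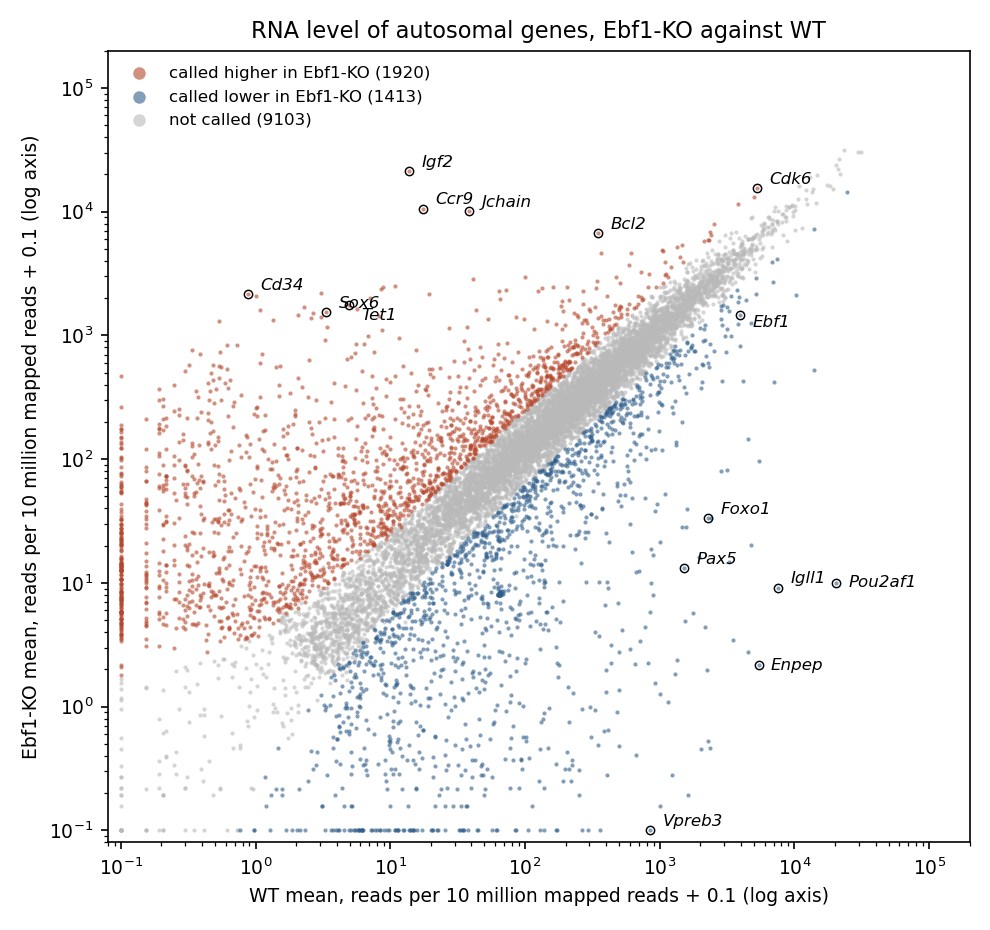
Mean RNA level of each tested autosomal gene in Ebf1-KO (vertical axis) against WT (horizontal axis), in reads per 10000000 mapped reads with 0.1 added, both axes logarithmic. The 1920 risen genes lie above the grey band of 9103 genes that were not called and the 1413 fallen genes lie below it; circles mark named genes, among them Igf2 at the top left and Vpreb3 at the bottom right.

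The targeted gene was examined first. Ebf1 was at 1447, 1345 and 1605 in the 3 Ebf1-KO libraries, against 3252, 4200.3 and 4454 in the 3 WT libraries. All Ebf1-KO libraries lay below all WT libraries (log2 fold change -1.73, standard error 0.15, adjusted p = 9.05e-07 by limma). Because counts are per gene and not per exon, absence of the deleted exons could not be examined. Pax5, which lies downstream of EBF1 in B lineage commitment, was at 8.53, 15.02 and 15.7 in the 3 Ebf1-KO libraries, against 1314, 1629 and 1619 in the 3 WT libraries, a far larger fall (log2 fold change -7.10, standard error 0.21, adjusted p = 6.64e-13 by limma).

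Genes described in the literature as activated by EBF1 were nearly all lower. Of 20 such genes, all tested, 17 fell and 2 rose, with a list median of -6.71 beside 0.01 for all tested autosomal genes. Blnk, the linker that couples the pre-B cell receptor to its kinases, was at 1.38, 0.733 and 0.862 in the 3 Ebf1-KO libraries, against 1336, 1009.8 and 1108 in the 3 WT libraries, so that it was nearly off in Ebf1-KO (log2 fold change -9.49, standard error 0.27, adjusted p = 3.86e-13 by limma). Vpreb1, a surrogate light chain gene, was at 1.93, 0 and 3.28 in the 3 Ebf1-KO libraries, against 1233, 1204 and 1481 in the 3 WT libraries (-9.44). Cd79b, a signalling chain of the receptor, was at 4.95, 4.76 and 4.83 in the 3 Ebf1-KO libraries, against 1629, 1407 and 1543 in the 3 WT libraries (-8.33). For these 3 genes every Ebf1-KO library was far below every WT library. Pou2af1, the octamer co-activator of B cells, was at 10.4, 10.6 and 8.45 in the 3 Ebf1-KO libraries, against 15925, 22566 and 22879 in the 3 WT libraries (log2 fold change -11.18, standard error 0.18, adjusted p = 3.97e-15 by limma). Cd22, an inhibitory lectin of the B cell surface, fell to 3.27 in Ebf1-KO, against 709 in WT (-7.68).

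The level left in Ebf1-KO varied among the other genes of this list. Irf4, a factor of pre-B and plasma cell differentiation, was at 87.5, 82.4 and 75.2 in the 3 Ebf1-KO libraries, against 2443, 3326 and 3762 in the 3 WT libraries (log2 fold change -5.55, standard error 0.17, adjusted p = 8.21e-13 by limma). Cd24a, which encodes the heat-stable antigen, was at 572, 461 and 552 in the 3 Ebf1-KO libraries, against 13878, 13488 and 14586 in the 3 WT libraries, with a log2 fold change of -5.04 and a level in Ebf1-KO that stayed far above 0. Fcrla, an intracellular Fc receptor-like protein, averaged 15.6 ± 1.48 in Ebf1-KO and 58.9 ± 12.7 in WT (-2.14), and Lef1, a Wnt-responsive factor of early lymphocytes, 28.4 ± 7.28 in Ebf1-KO and 1556 ± 71.1 in WT (-6.06). Blk, a SRC family kinase with a low level in WT, was nearly off in Ebf1-KO and averaged 0.444 ± 0.218 in Ebf1-KO and 36.1 ± 6.95 in WT (-4.98). The 2 genes that rose were Cd2, an adhesion molecule, at 91.3, 143 and 147 in the 3 Ebf1-KO libraries, against 7.85, 8.101 and 12.2 in the 3 WT libraries (log2 fold change 3.31, standard error 0.24, adjusted p = 4.70e-09 by limma), and Cd72, a B cell co-receptor, at 156, 137 and 149 in the 3 Ebf1-KO libraries, against 44.02, 53.2 and 46.1 in the 3 WT libraries (log2 fold change 1.30, standard error 0.19, adjusted p = 3.21e-06 by limma). Rag2 was not called (log2 fold change -0.85, standard error 0.26, adjusted p = 0.0854 by limma).

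**Figure D2:**
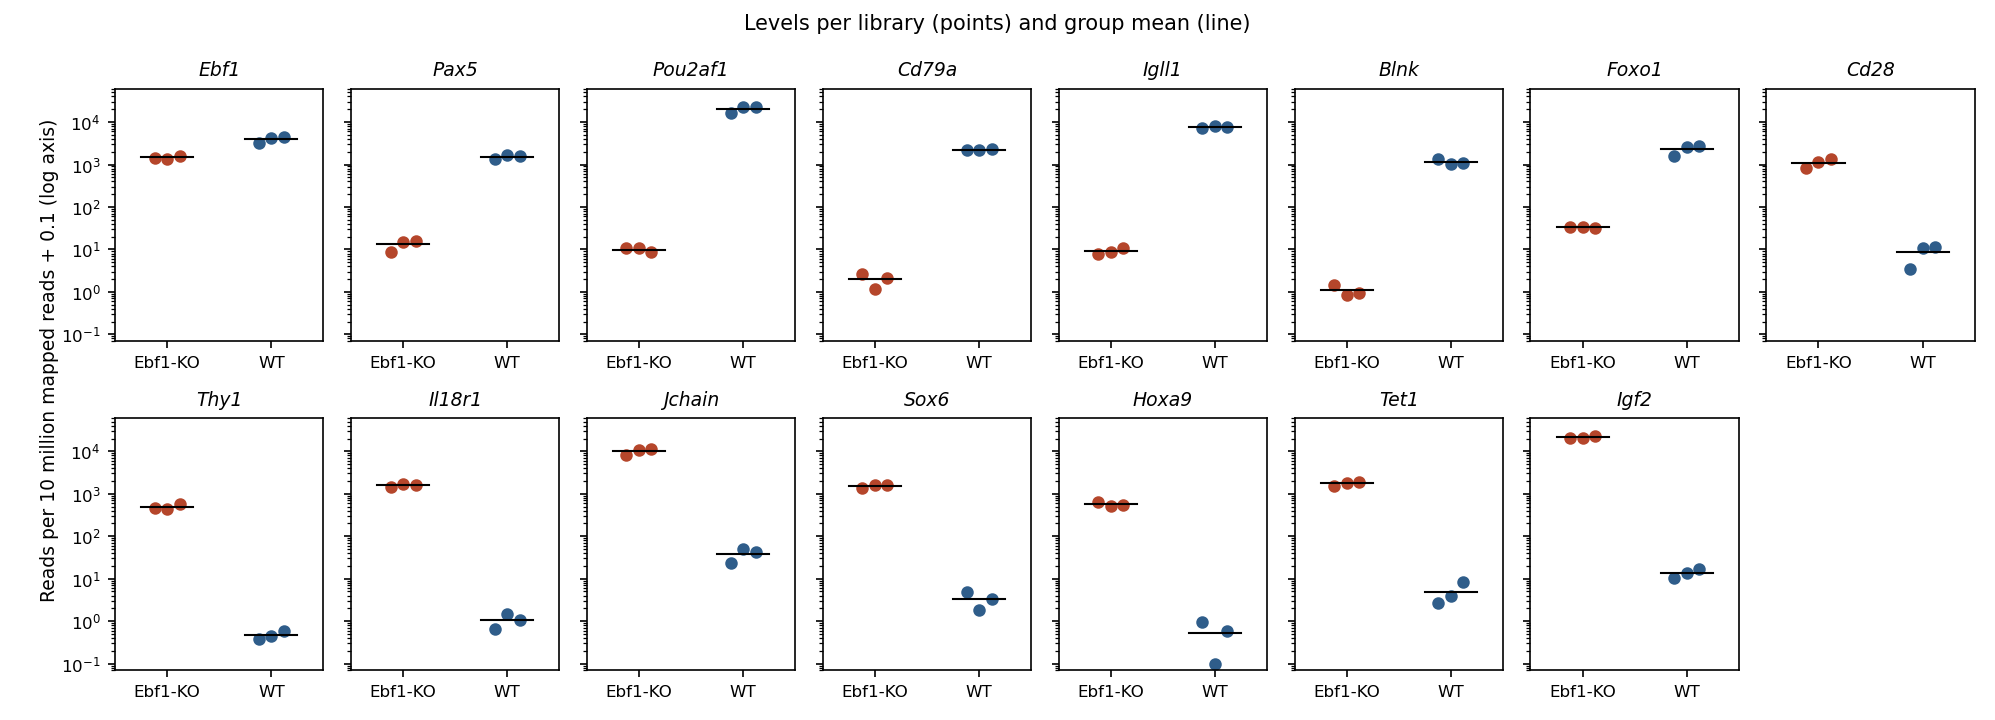
RNA level of 15 genes in each Ebf1-KO library (left in each panel) and each WT library (right), in reads per 10000000 mapped reads with 0.1 added, on a logarithmic axis; points are libraries and lines are group means. In every panel the 3 Ebf1-KO points lie apart from the 3 WT points: lower in the first 7 panels, Ebf1 to Foxo1, and higher in the last 8, Cd28 to Igf2.

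The loss extended over the B cell surface, with exceptions. Of 29 tested surface genes 16 fell and 5 rose (list median -1.44). Siglecg, an inhibitory sialic acid receptor, was at 0.825, 4.03 and 3.62 in the 3 Ebf1-KO libraries, against 584, 587 and 646 in the 3 WT libraries (-7.75), and Tnfrsf13c, the receptor for the B cell survival factor BAFF, at 9.90, 17.6 and 26.04 in the 3 Ebf1-KO libraries, against 465, 673 and 719.7 in the 3 WT libraries (-5.42). Ms4a1, which encodes CD20, was at 0 in all Ebf1-KO libraries and at 138 in WT, at least 558-fold lower, taking 3 reads summed over the 3 libraries as the floor. Cd38, an ecto-enzyme, averaged 8.83 ± 2.93 in Ebf1-KO and 39.7 ± 1.42 in WT (-2.40). In the other direction, Ptprc, the pan-leukocyte phosphatase CD45, was at 5416, 5262 and 5496 in the 3 Ebf1-KO libraries, against 1281, 1468 and 1613 in the 3 WT libraries (log2 fold change 1.59, standard error 0.13, adjusted p = 5.59e-09 by limma). Ly6d, a marker of B-lineage-biased lymphoid progenitors, was at 341, 430.2 and 520.4 in the 3 Ebf1-KO libraries, against 49.9, 54.9 and 74.9 in the 3 WT libraries (2.52). Lair1, an inhibitory collagen receptor, averaged 21.3 ± 6.32 in Ebf1-KO and 1.63 ± 0.813 in WT (2.79).

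In receptor signalling, the chain Cd79b and the linker Blnk fell as given above, and several other components did not. Syk, a proximal kinase, was not called (-0.35, adjusted p = 0.777 by limma). Of 30 B cell receptor signalling genes 13 fell, 4 rose and 13 were not called (list median -0.63). The risen members act between the receptor and the PI3-kinase and NF-kappaB pathways. Pik3r1, the regulatory subunit of PI3-kinase, was at 2945, 3063 and 3349 in the 3 Ebf1-KO libraries, against 664, 892 and 923 in the 3 WT libraries (log2 fold change 1.62, standard error 0.15, adjusted p = 2.05e-08 by limma). Dapp1, an adaptor that binds the lipid product of PI3-kinase, was at 1337, 1166 and 1259 in the 3 Ebf1-KO libraries, against 275, 297 and 299.6 in the 3 WT libraries (1.80). Malt1, a paracaspase, averaged 1545 ± 609.9 in Ebf1-KO and 453 ± 59.1 in WT (1.40). Bcl10, its partner, averaged 664 ± 29.6 in Ebf1-KO and 264 ± 27.3 in WT (1.03), and was not called without WT library 3 (0.99, adjusted p = 4.79e-06).

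Genes of later B cell stages were divided. Of 20 germinal centre and plasma cell genes 7 rose and 7 fell. Jchain, which encodes the joining chain of secreted immunoglobulin M and A, was at 8397, 10569 and 11586 in the 3 Ebf1-KO libraries, against 23.3, 48.96 and 42.2 in the 3 WT libraries (log2 fold change 7.77, standard error 0.22, adjusted p = 1.54e-13 by limma), one of the called genes with the most reads in Ebf1-KO. Gcsam, a germinal centre signalling adaptor, was at 88.3, 263 and 286 in the 3 Ebf1-KO libraries, against 0, 0 and 0.317 in the 3 WT libraries (7.12). Prdm1, the repressor that drives plasma cell differentiation, averaged 10.5 ± 5.57 in Ebf1-KO and 0.235 ± 0.406 in WT (2.83). H2-Aa, a class II histocompatibility chain, averaged 12.1 ± 1.29 in Ebf1-KO and 0.0530 ± 0.0918 in WT (3.33). Against these, Mzb1, a chaperone of the secretory path in marginal zone B cells, was at 26.1, 21.3 and 26.6 in the 3 Ebf1-KO libraries, against 216, 247 and 277 in the 3 WT libraries (-3.58). Spib, an ETS factor of B cells, was at 239.8, 136 and 128 in the 3 Ebf1-KO libraries, against 930.4, 1027 and 1001 in the 3 WT libraries (-2.92), and Bach2, a repressor of plasma cell differentiation, at 909, 666 and 631 in the 3 Ebf1-KO libraries, against 2811, 3153 and 3275 in the 3 WT libraries (-2.39).

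Most tested genes on a list of T cell receptor signalling rose, while B cell receptor signalling genes fell more often than they rose. The risen members named here are surface proteins and a kinase, not chains of the T cell receptor itself. Of 23 tested T cell receptor signalling genes 19 rose and 2 fell (list median 3.55, or 3.63 when the 7 genes absent from a group take their bound). Another 7 genes of the list were not tested. Thy1, a surface glycoprotein of T cells and early progenitors, was at 471, 444 and 585 in the 3 Ebf1-KO libraries, against 0.280, 0.352 and 0.476 in the 3 WT libraries (log2 fold change 8.20, standard error 0.26, adjusted p = 5.62e-13 by limma). Cd28, the co-stimulatory receptor, was at 834, 1125 and 1347 in the 3 Ebf1-KO libraries, against 3.37, 10.6 and 11.6 in the 3 WT libraries (log2 fold change 6.67, standard error 0.31, adjusted p = 4.44e-11 by limma), and Cd27, a TNF receptor of lymphoid progenitors and T cells, at 769.7, 820.1 and 962 in the 3 Ebf1-KO libraries, against 6.73, 4.93 and 4.76 in the 3 WT libraries (6.74). Txk, a TEC family kinase, was at 329, 249.9 and 211 in the 3 Ebf1-KO libraries, against 0 in all 3 WT libraries, which is at least 1115-fold higher, and Cd7 at 134, 198 and 162 in the 3 Ebf1-KO libraries, against 0 in all 3 WT libraries, which is at least 698-fold higher. Prkcq, a protein kinase C isoform of T cell activation, went the other way, with 0 in all Ebf1-KO libraries and 34.1 in WT, at least 138-fold lower. Lcp2, the adaptor SLP-76, averaged 58.6 ± 21.2 in Ebf1-KO and 115 ± 34.1 in WT (-1.29) and was not called without Ebf1-KO library 1 (adjusted p = 0.0724) or WT library 3 (0.0571).

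Genes of cytotoxic and innate lymphocytes rose in the same libraries. Of 17 tested cytotoxic effector genes 15 rose and 1 fell (median 3.56, or 4.21 with 1 gene at its bound). Another 8 genes of the list were not tested. With quantile normalization, edgeR or DESeq2 or without WT library 2, 2 of the 17 fell. Gzma, a granule protease, was at 136, 198 and 148 in the 3 Ebf1-KO libraries, against 0.561, 0 and 0 in the 3 WT libraries (6.80). Fcgr3, an activating Fc receptor, was at 363, 388 and 364 in the 3 Ebf1-KO libraries, against 0.280, 0 and 0 in the 3 WT libraries (8.11), and its partner Fcer1g, the common Fc receptor gamma chain, at 1312, 1339.7 and 1714 in the 3 Ebf1-KO libraries, against 0.841, 1.06 and 3.96 in the 3 WT libraries (log2 fold change 8.78, standard error 0.31, adjusted p = 1.93e-12 by limma). Ctsw, a protease of cytotoxic cells, averaged 136 ± 13.8 in Ebf1-KO and 2.69 ± 0.421 in WT (4.91). Slamf7, a homotypic receptor of cytotoxic and B cells, fell: it averaged 16.2 ± 4.12 in Ebf1-KO and 1948 ± 403 in WT (-7.14).

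Among 17 tested factors of innate lymphoid and T cells 15 rose and 1 fell (median 4.55, or 4.97 with 2 genes at their bound). With quantile normalization 2 fell. Another 3 genes of the list were not tested. Ahr, the aryl hydrocarbon receptor, was at 917, 641 and 651 in the 3 Ebf1-KO libraries, against 0.280, 1.06 and 0 in the 3 WT libraries (log2 fold change 8.73, standard error 0.27, adjusted p = 4.58e-13 by limma). Tox, an HMG-box factor needed for innate lymphoid and CD4 T cell development, was at 1164, 1361 and 1701 in the 3 Ebf1-KO libraries, against 1.96, 4.23 and 2.696 in the 3 WT libraries (log2 fold change 8.19, standard error 0.22, adjusted p = 1.11e-13 by limma). Zbtb16, which encodes PLZF, was at 139.7, 143 and 162 in the 3 Ebf1-KO libraries, against 0 in all 3 WT libraries, which is at least 629-fold higher. The member that fell, Batf, lay close to the limit (-1.03, adjusted p = 0.0196) and was not called with a pseudocount of 5 (-0.96), with no filter on low values (-0.91) or without Ebf1-KO library 1 or 3 or WT library 2 or 3 (adjusted p from 0.0495 to 0.0975).

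Markers of other cell types were summed in each library beside these groups. For 14 pro-B markers the sum was 6657 to 8082 in Ebf1-KO and 30499 to 32776 in WT, 11 of them fell, and Vpreb3 was at 0 in all Ebf1-KO libraries. For 10 NK and innate lymphoid markers it was 1973 to 2269 in Ebf1-KO and 5.33 to 8.72 in WT, with 8 of 8 tested members risen. For 9 T markers it was 462 to 531 in Ebf1-KO and 36.0 to 44.03 in WT, with 4 of 5 risen and Cd3g at 0 in all WT libraries. For 9 dendritic markers it was 12456 to 14345 in Ebf1-KO and 94.8 to 118 in WT, with 5 of 6 risen. For the 10 of 11 myeloid markers in the table it was 801 to 1050 in Ebf1-KO and 8.10 to 16.5 in WT, with 4 of 6 risen, 1 fallen, and Cd14 and Ctsg at 0 in all Ebf1-KO libraries. Mast cell and basophil markers summed to at most 4.40 in any library, with 5 of 8 at 0 in all Ebf1-KO libraries. Erythroid and megakaryocyte markers summed to 42.1 to 55.4 in Ebf1-KO and 5.89 to 9.51 in WT, and stroma markers to 395 to 468 in Ebf1-KO and 140 to 327 in WT. Single genes made up most of some sums in Ebf1-KO. Ccr9 was at 9772 to 11636 of the dendritic sum, and Il18r1 at 1469 to 1657 of the NK and innate lymphoid sum. Whether the marker transcripts came from the labelled pro-B cells or from other cells in the culture was not tested. All 3 Ebf1-KO libraries also had Xist at 41026 to 47861, against 15.4 to 37.3 in WT, and the Y-linked Ddx3y at 0.517 to 2.75 in Ebf1-KO, against 611 to 745 in WT. Embryo sex and genotype cannot be told apart here.

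**Figure D3:**
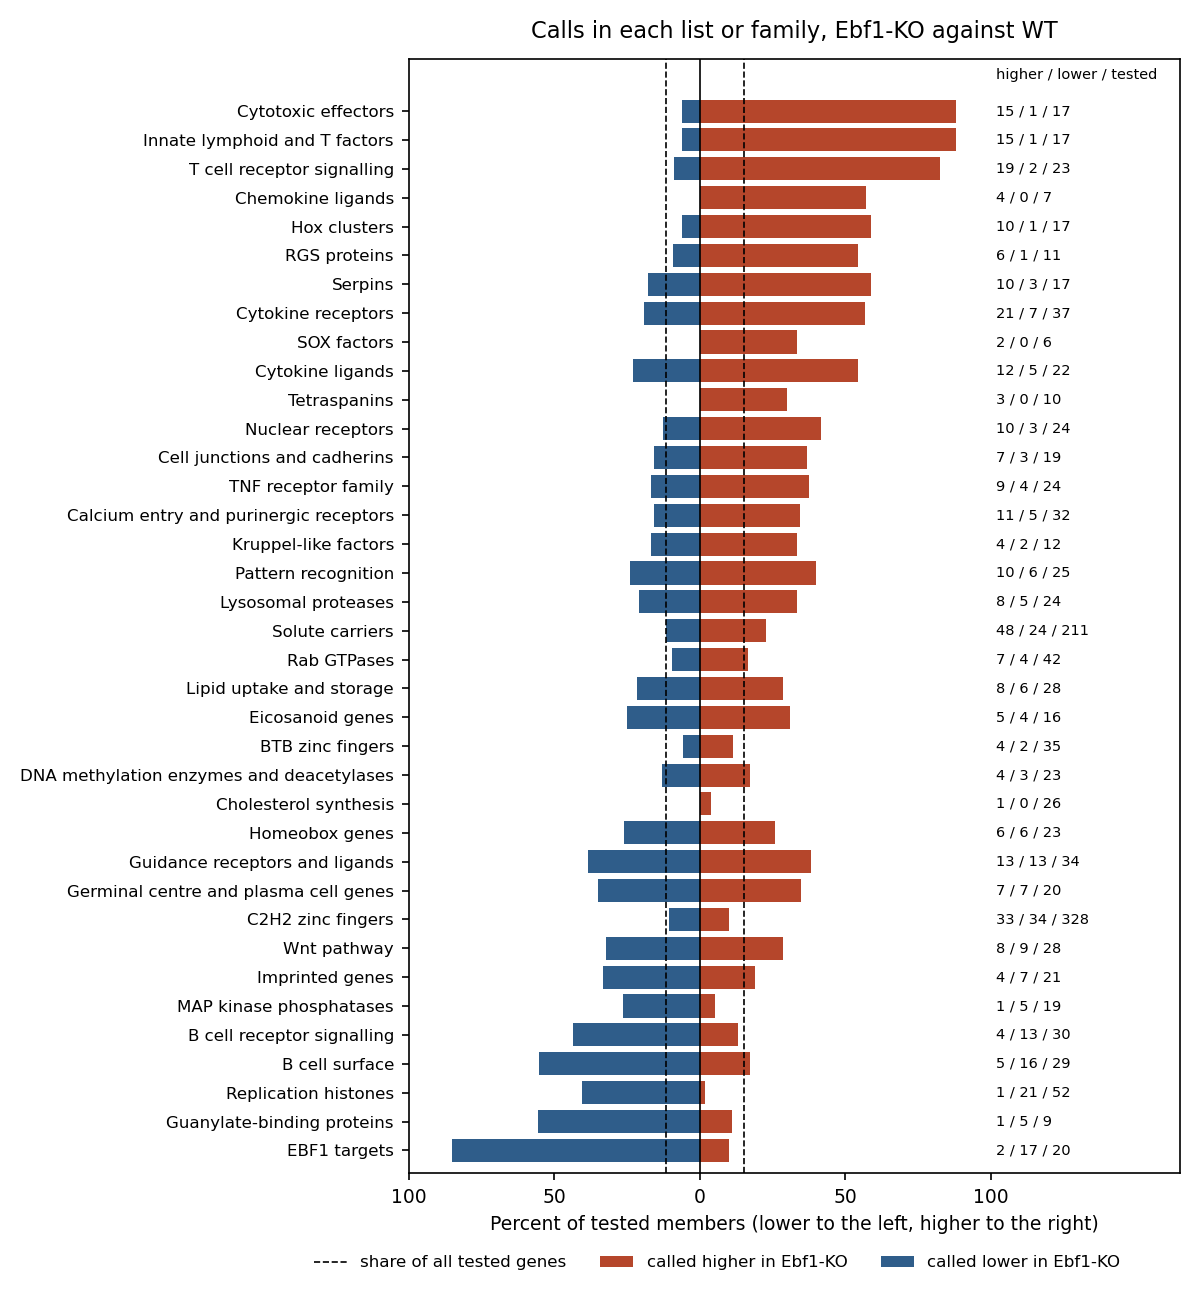
Share of the tested members of each gene list or family that rose (right) or fell (left) in Ebf1-KO against WT, in percent, with counts of risen, fallen and tested members at the right edge. Dashed lines mark the shares over all tested autosomal genes, 15.4% risen and 11.4% fallen. Innate lymphoid and T factors, cytotoxic effectors and T cell receptor signalling stand at the top and EBF1 targets at the bottom.

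Homeobox genes of the HOXA cluster, which pattern the body axis and mark haematopoietic progenitors, rose together. Of 17 tested HOX genes 10 rose and 1 fell, or 2 with edgeR or DESeq2. Another 22 HOX genes were not tested. Hoxa9 was at 634, 517 and 549 in the 3 Ebf1-KO libraries, against 0.841, 0 and 0.476 in the 3 WT libraries (log2 fold change 8.35, standard error 0.22, adjusted p = 1.12e-13 by limma), and Hoxa10 at 399, 421 and 484 in the 3 Ebf1-KO libraries, against 0.280, 0.704 and 0.159 in the 3 WT libraries (log2 fold change 8.01, standard error 0.20, adjusted p = 5.99e-14 by limma). Hoxa7, Hoxa5 and Hoxa3 were at 0 in all WT libraries and averaged 176, 151 and 54.02 in Ebf1-KO, at least 748, 640.0 and 229-fold higher. The fallen member was Hoxb4, of the HOXB cluster, at 0.868 in Ebf1-KO and 4.51 in WT (-1.88), which was not called with a pseudocount of 5 (-0.98, adjusted p = 0.00363). Meis1, a homeobox partner of HOXA9 in progenitors, was at 294, 275 and 281 in the 3 Ebf1-KO libraries, against 0, 0.704 and 0.476 in the 3 WT libraries (log2 fold change 7.40, standard error 0.23, adjusted p = 4.22e-13 by limma).

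Other homeobox genes moved in equal numbers each way, with 6 of 23 risen and 6 fallen. Satb1, an organiser of chromatin loops, was at 3928, 4801 and 5077 in the 3 Ebf1-KO libraries, against 352, 387 and 351 in the 3 WT libraries (log2 fold change 3.34, standard error 0.13, adjusted p = 3.49e-12 by limma). Hlx, a factor of progenitors and NK cells, averaged 71.4 ± 24.6 in Ebf1-KO and 1.89 ± 0.572 in WT (4.29). Lhx2, a LIM homeobox factor, averaged 0.788 ± 0.812 in Ebf1-KO and 138 ± 17.6 in WT (-6.67), and Zhx2 14.5 ± 2.18 in Ebf1-KO and 261 ± 26.7 in WT (-4.39). Zeb2, a repressor used in several blood lineages, was at 573, 605 and 636 in the 3 Ebf1-KO libraries, against 2682, 2132 and 2042 in the 3 WT libraries (-2.21).

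In other transcription factor families some members changed and others did not. Of 6 tested SOX genes only Sox6 and Sox5, close relatives of the SOXD group, rose. Sox6 was at 1329, 1639 and 1650.4 in the 3 Ebf1-KO libraries, against 4.77, 1.76 and 3.17 in the 3 WT libraries (log2 fold change 8.26, standard error 0.29, adjusted p = 1.41e-12 by limma) and Sox5 at 156, 196 and 202 in the 3 Ebf1-KO libraries, against 0.561, 2.82 and 1.59 in the 3 WT libraries (5.91). Of 24 nuclear receptors 10 rose and 3 fell. Rarg, a retinoic acid receptor, averaged 58.7 ± 12.4 in Ebf1-KO and 0.106 ± 0.183 in WT (5.44) and Rxra, its heterodimer partner, 48.5 ± 13.3 in Ebf1-KO and 2.603 ± 0.534 in WT (3.44). Thrb, a thyroid hormone receptor, averaged 25.5 ± 2.74 in Ebf1-KO and 402 ± 115 in WT (-4.20). Of 12 tested Kruppel-like factors 4 rose and 2 fell, among them Klf4 at 43.8 in Ebf1-KO and 2.73 in WT (3.30) and Klf12 at 0.275 in Ebf1-KO and 92.8 in WT (-6.55). The second fallen member was Klf9 (-1.07, adjusted p = 0.0155), which was not called with a pseudocount of 5 (-0.98), with no filter on low values (-0.95) or without Ebf1-KO library 2 or 3 or WT library 2 or 3 (adjusted p from 0.0456 to 0.0829). Of 35 BTB zinc fingers 4 rose, 2 fell (1 with no filter on low values) and 29 were not called. These were 11.4% risen and 5.71% fallen, beside 15.4% and 11.4% of all tested genes.

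Of 328 C2H2 zinc fingers, a large family that includes many repressors of repeats, 33 rose (10.1%) and 34 fell (10.4%), beside 15.4% and 11.4% of all tested genes. Zfp521, a regulator of progenitor and B cell differentiation, was at 0, 0.733 and 0 in the 3 Ebf1-KO libraries, against 181, 167 and 165 in the 3 WT libraries (log2 fold change -7.47, standard error 0.24, adjusted p = 1.48e-12 by limma). Zfp882 was at 441, 739 and 829.6 in the 3 Ebf1-KO libraries, against 4.49, 5.99 and 4.599 in the 3 WT libraries (6.45), and Zfp518b at 155, 185 and 220.03 in the 3 Ebf1-KO libraries, against 0, 0.352 and 0 in the 3 WT libraries (7.09). Zkscan16 averaged 0.122 ± 0.211 in Ebf1-KO and 90.5 ± 23.6 in WT (-6.64).

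Cytokine receptors rose more often than they fell. Of 37 tested receptor genes 21 rose and 7 fell, and 4 fell with a pseudocount of 5 or with no filter on low values. Il18r1 and Il18rap, the chains of the interleukin-18 receptor, rose together. Il18r1 was at 1469, 1657 and 1651 in the 3 Ebf1-KO libraries, against 0.561, 1.41 and 0.952 in the 3 WT libraries (log2 fold change 9.37, standard error 0.18, adjusted p = 7.48e-15 by limma), and Il18rap at 1627, 1499.8 and 1430.2 in the 3 Ebf1-KO libraries, against 4.21, 2.11 and 1.43 in the 3 WT libraries (log2 fold change 8.49, standard error 0.22, adjusted p = 7.60e-14 by limma). Il12rb2, a chain of the interleukin-12 receptor, was at 799.98, 715 and 786 in the 3 Ebf1-KO libraries, against 10.9, 16.6 and 18.6 in the 3 WT libraries (log2 fold change 5.28, standard error 0.23, adjusted p = 1.70e-11 by limma), and Il1r2, the decoy receptor of interleukin-1, averaged 80.1 ± 28.1 in Ebf1-KO and 0.0530 ± 0.0918 in WT (5.91). Il5ra, the interleukin-5 receptor chain of B-1 cells and eosinophils, was at 0.550, 0.733 and 0.690 in the 3 Ebf1-KO libraries, against 239, 185 and 213 in the 3 WT libraries (-7.31). Il27ra averaged 0.0917 ± 0.159 in Ebf1-KO and 49.2 ± 7.46 in WT (-5.83) and Csf2ra, of the GM-CSF receptor, 7.203 ± 2.64 in Ebf1-KO and 35.1 ± 3.01 in WT (-2.50).

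Ligands were counted in the same way. Of 22 tested cytokine ligands 12 rose and 5 fell, and of 7 tested chemokine ligands 4 rose and none fell, or 1 with the replicate number as a block. Another 18 cytokine and 15 chemokine ligands were not tested. Igf2, a fetal growth factor, was at 20009.8, 20757 and 22913 in the 3 Ebf1-KO libraries, against 10.4, 13.4 and 16.97 in the 3 WT libraries (log2 fold change 10.22, standard error 0.18, adjusted p = 3.97e-15 by limma). On value + 1 this was the largest log2 fold change among risen genes with a group mean of at least 100. The added 1 shrinks the fold of genes near 0 in WT, so by level alone other genes can rank above Igf2. Ccl3, a chemokine that attracts leukocytes, was at 94.05, 376 and 429 in the 3 Ebf1-KO libraries, against 0, 1.06 and 0 in the 3 WT libraries (log2 fold change 7.30, standard error 0.44, adjusted p = 9.37e-10 by limma), Ccl5 at 64.9, 75.5 and 81.4 in the 3 Ebf1-KO libraries, against 0.561, 2.47 and 1.11 in the 3 WT libraries (4.74), and Xcl1, a chemokine of NK cells, averaged 63.5 ± 2.29 in Ebf1-KO and 0.117 ± 0.203 in WT (5.56). Tgfb3 averaged 46.4 ± 4.12 in Ebf1-KO and 1.92 ± 0.487 in WT (3.73) and Il18, the ligand of the risen receptor, 20.7 ± 4.47 in Ebf1-KO and 1.36 ± 1.41 in WT (3.07). Csf1, the macrophage growth factor, was the listed ligand with the largest fall, at 48.7, 16.5 and 13.4 in the 3 Ebf1-KO libraries, against 359, 179 and 218 in the 3 WT libraries (-3.69), and Vegfa, the endothelial growth factor, averaged 835 ± 125 in Ebf1-KO and 1728 ± 325 in WT (-1.35).

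Members of the TNF receptor family were split between the groups, with 9 of 24 risen and 4 fallen. Tnfrsf1a, the main receptor of TNF, was at 173, 154 and 178 in the 3 Ebf1-KO libraries, against 0.841, 0 and 0.317 in the 3 WT libraries (log2 fold change 6.67, standard error 0.24, adjusted p = 1.93e-12 by limma), and Tnfrsf9, the co-stimulatory receptor 4-1BB, at 283, 132 and 124 in the 3 Ebf1-KO libraries, against 2.24, 2.47 and 2.696 in the 3 WT libraries (5.29). Tnfrsf19, a receptor known from stem cells of epithelia, was at 10.2, 4.76 and 8.62 in the 3 Ebf1-KO libraries, against 815, 901 and 939.9 in the 3 WT libraries (log2 fold change -7.004, standard error 0.24, adjusted p = 2.66e-12 by limma). Sensors of microbes showed a similar split, with 10 of 25 pattern recognition genes risen and 6 fallen, or 6 risen with a pseudocount of 5. Tlr4, the receptor of lipopolysaccharide, was at 44.5, 23.1 and 22.8 in the 3 Ebf1-KO libraries, against 410.2, 635 and 747 in the 3 WT libraries (log2 fold change -4.60, standard error 0.27, adjusted p = 2.48e-09 by limma), and Irak3, a brake on its signalling, averaged 0.0573 ± 0.0993 in Ebf1-KO and 37.2 ± 7.39 in WT (-5.47). Clec12a, an inhibitory lectin of myeloid cells, was at 335, 354 and 477 in the 3 Ebf1-KO libraries, against 3.93, 4.93 and 4.76 in the 3 WT libraries (5.82). Tmem173, which encodes the DNA sensor adaptor STING, averaged 681 ± 55.5 in Ebf1-KO and 115 ± 6.26 in WT (2.25), and Pycard, the inflammasome adaptor, 141 ± 28.7 in Ebf1-KO and 20.1 ± 5.28 in WT (2.45).

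Eicosanoid genes moved in both directions, with 5 of 16 risen and 4 fallen, or 2 fallen without WT library 2. These were 31.25% risen and 25% fallen, beside 15.4% and 11.4% of all tested genes. Alox5ap, needed for leukotriene synthesis, averaged 216 ± 36.7 in Ebf1-KO and 27.8 ± 8.197 in WT (2.64), and Ptger3, a prostaglandin E2 receptor, 62.9 ± 12.9 in Ebf1-KO and 0.211 ± 0.186 in WT (5.41). Ptger4, another receptor of the same ligand, averaged 42.3 ± 15.1 in Ebf1-KO and 112 ± 17.8 in WT (-1.74).

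Interferon-inducible guanylate-binding proteins mostly fell, 5 of 9 with 1 risen, or 2 risen with a pseudocount of 0.5, without Ebf1-KO library 3 or without WT library 2. Gbp7 was at 367, 438 and 459 in the 3 Ebf1-KO libraries, against 1611, 2222 and 2325 in the 3 WT libraries (log2 fold change -2.58, standard error 0.16, adjusted p = 9.38e-09 by limma) and Gbp3 at 15.9, 18.3 and 21.9 in the 3 Ebf1-KO libraries, against 245, 209 and 249 in the 3 WT libraries (-3.89), while Gbp8 averaged 48.5 ± 4.78 in Ebf1-KO and 1.36 ± 0.688 in WT (4.13). These genes are near copies of each other, so reads may be split between them. Serpins, inhibitors of proteases, mostly rose where tested, with 10 of 17 risen and 3 fallen, while 45 were not tested. The risen members included Serpina3g, at 73.6 in Ebf1-KO and 0.117 in WT (5.74), and Serpinb9c, at 82.5 in Ebf1-KO and 1.21 in WT (4.91), which is also one of several near copies.

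Guidance molecules, which steer growing axons and also act in lymphocyte contact and migration, changed in both directions: 13 of 34 rose and 13 fell. Those with the largest falls were plexins A and class 5 and 6 semaphorins. Plxna2 was at 0.825, 1.099 and 1.55 in the 3 Ebf1-KO libraries, against 950.3, 975 and 1075 in the 3 WT libraries (log2 fold change -9.18, standard error 0.17, adjusted p = 8.71e-15 by limma) and Plxna1 at 11.6, 4.76 and 13.3 in the 3 Ebf1-KO libraries, against 616, 959 and 995 in the 3 WT libraries (log2 fold change -6.68, standard error 0.30, adjusted p = 7.40e-11 by limma). Sema5a averaged 1.88 ± 1.88 in Ebf1-KO and 396 ± 11.8 in WT (-7.60), Sema5b 0.214 ± 0.191 in Ebf1-KO and 198 ± 56.1 in WT (-7.64) and Sema6d, a ligand of plexin A1, 0.237 ± 0.206 in Ebf1-KO and 222 ± 11.2 in WT (-7.82). The risen set held the neuropilins, co-receptors of class 3 semaphorins. Nrp2 was at 165, 229 and 253 in the 3 Ebf1-KO libraries, against 0.280, 0.352 and 0 in the 3 WT libraries (log2 fold change 7.17, standard error 0.26, adjusted p = 1.93e-12 by limma) and Nrp1 at 68.5, 90.9 and 91.2 in the 3 Ebf1-KO libraries, against 0.841, 1.76 and 0.952 in the 3 WT libraries (4.98). Sema4c averaged 54.0 ± 7.53 in Ebf1-KO and 0.264 ± 0.0975 in WT (5.13). In none of these genes did the groups overlap, which adds nothing to the calls. The same holds for 1919 of the 1920 risen and 1388 of the 1413 fallen genes.

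Tested junction genes rose more often than they fell, 7 of 19 against 3, while 23 were not tested. Jup, which encodes plakoglobin, was at 419.6, 418 and 406 in the 3 Ebf1-KO libraries, against 3.37, 4.23 and 3.49 in the 3 WT libraries (log2 fold change 6.16, standard error 0.18, adjusted p = 2.33e-13 by limma), and Dsp, which encodes its desmosome partner desmoplakin, at 201, 218 and 210.03 in the 3 Ebf1-KO libraries, against 0, 0 and 0.159 in the 3 WT libraries (log2 fold change 7.34, standard error 0.23, adjusted p = 4.58e-13 by limma). Cdh13, a cadherin without a cytoplasmic tail, averaged 319.7 ± 9.85 in Ebf1-KO and 0.276 ± 0.247 in WT (7.69), and Ctnnd2, delta-catenin, 414 ± 66.2 in Ebf1-KO and 0.346 ± 0.302 in WT (7.97). The related Ctnnd1, p120-catenin, averaged 117 ± 55.7 in Ebf1-KO and 335 ± 20.2 in WT (-1.95), and the protocadherin Pcdh9 2.15 ± 1.304 in Ebf1-KO and 435 ± 13.1 in WT (-7.52).

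In the Wnt pathway the nuclear effectors moved in opposite directions. Of 28 tested genes 8 rose (28.6%) and 9 fell (32.1%), beside 15.4% and 11.4% of all tested genes. Of the TCF and LEF factors, which bind beta-catenin, Tcf7 was at 122, 109.9 and 118 in the 3 Ebf1-KO libraries, against 3.37, 3.52 and 2.38 in the 3 WT libraries (log2 fold change 4.55, standard error 0.20, adjusted p = 1.70e-11 by limma). Tcf7l2, by contrast, was at 3.30, 4.03 and 1.897 in the 3 Ebf1-KO libraries, against 526, 404 and 379 in the 3 WT libraries (log2 fold change -7.07, standard error 0.23, adjusted p = 1.61e-12 by limma), and Lef1 fell as given above. Their co-repressor Tle1 averaged 4.39 ± 0.9901 in Ebf1-KO and 109 ± 12.3 in WT (-4.68). Feedback inhibitors also moved in opposite directions, with Nkd1 at 31.1 in Ebf1-KO and 0.117 in WT (4.54) and Nkd2 at 1.36 in Ebf1-KO and 209 in WT (-6.78). Rnf43, which removes Wnt receptors from the membrane, averaged 34.8 ± 6.905 in Ebf1-KO and 0.0530 ± 0.0918 in WT (4.76), and the ligand Wnt10b 67.5 ± 9.89 in Ebf1-KO and 0.2803 ± 0.486 in WT (5.49). Ctnnb1, beta-catenin itself, was not called (0.45, adjusted p = 2.55e-04).

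**Figure D4:**
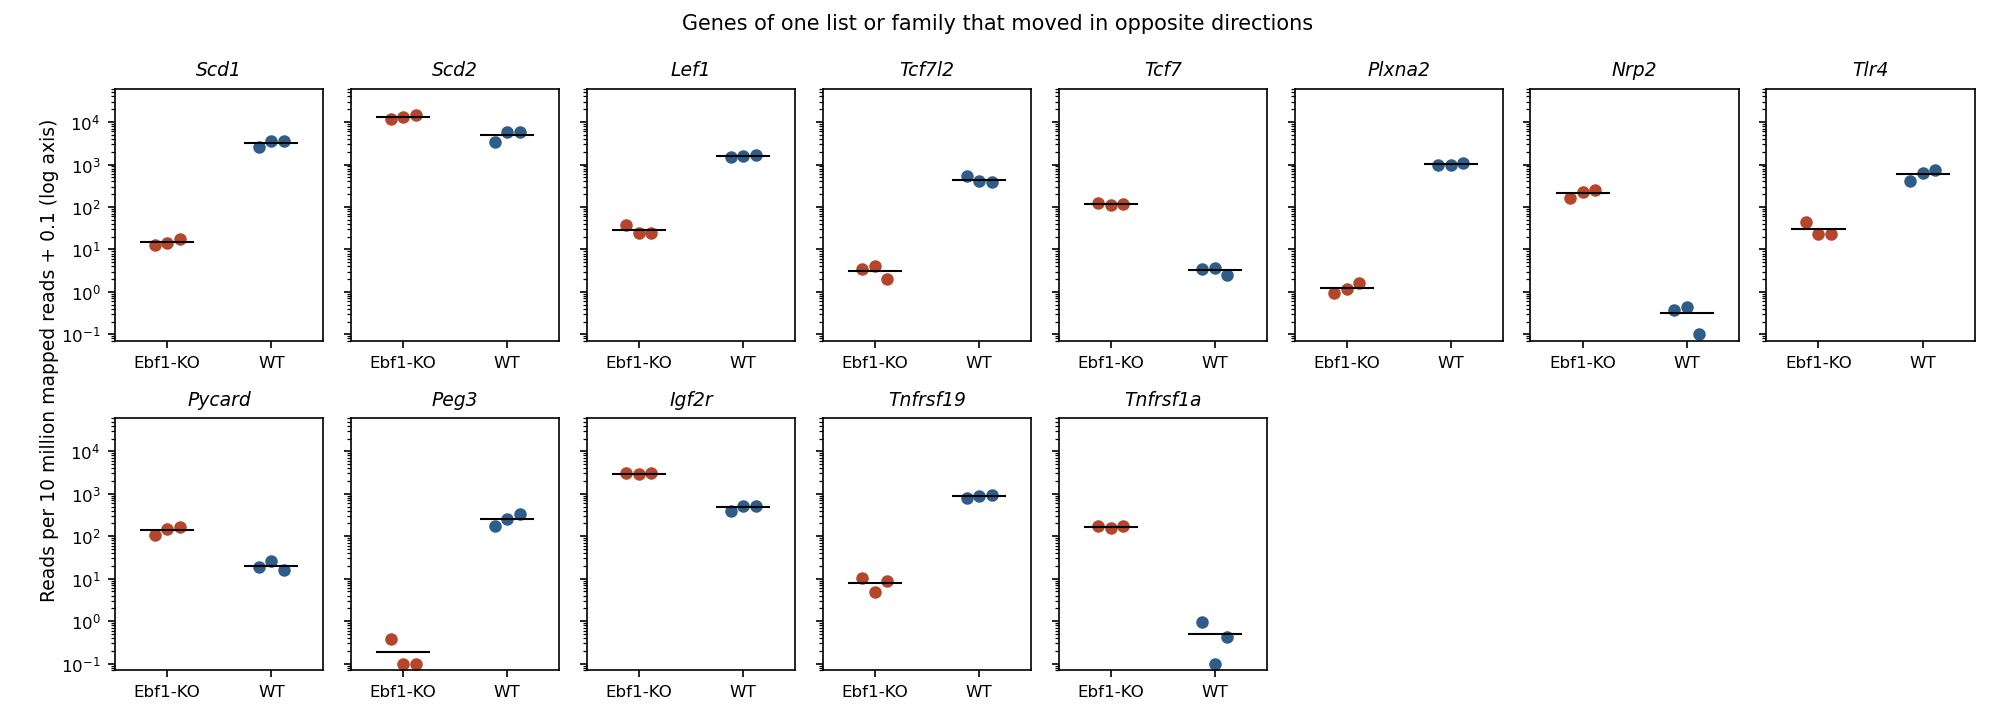
RNA level of 13 genes in each Ebf1-KO library (left in each panel) and each WT library (right), in reads per 10000000 mapped reads with 0.1 added, on a logarithmic axis; points are libraries and lines are group means. Related genes stand next to each other, such as Scd1, which fell, and Scd2, which rose, or Lef1 and Tcf7l2, which fell, and Tcf7, which rose; the groups are apart in every panel.

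Lipid genes also moved in both directions. Of 28 lipid uptake and storage genes 8 rose and 6 fell. Scd1, a stearoyl-CoA desaturase, was at 12.9, 13.9 and 17.2 in the 3 Ebf1-KO libraries, against 2608, 3546 and 3637 in the 3 WT libraries (log2 fold change -8.001, standard error 0.16, adjusted p = 1.74e-14 by limma). Its paralogue Scd2 was at 11962, 13127 and 14635 in the 3 Ebf1-KO libraries, against 3423, 5861 and 5738 in the 3 WT libraries (log2 fold change 1.13, standard error 0.19, adjusted p = 1.15e-05 by limma) and was not called without WT library 1 (0.96, adjusted p = 8.36e-06). Cd36, a fatty acid transporter, was at 0.550, 0.733 and 0 in the 3 Ebf1-KO libraries, against 1844, 2321 and 2621 in the 3 WT libraries (log2 fold change -10.96, standard error 0.27, adjusted p = 1.11e-13 by limma), while Lrp1, an endocytic receptor of lipoproteins, was at 703, 960.4 and 879.6 in the 3 Ebf1-KO libraries, against 5.05, 8.81 and 4.92 in the 3 WT libraries (log2 fold change 6.59, standard error 0.21, adjusted p = 5.72e-13 by limma). Cpt1a, which carries fatty acids into mitochondria for oxidation, averaged 645 in Ebf1-KO and 58.9 in WT (3.09), and Lipa, the lysosomal lipase, 36.2 ± 7.42 in Ebf1-KO and 309 ± 52.99 in WT (-3.37). Cholesterol synthesis stayed near the median: of 26 tested genes 1 rose, Mvd (1.22), which was not called without WT library 1 (0.96, adjusted p = 0.000223), and none fell. With TMM, quantile normalization, edgeR, DESeq2, only the 6 libraries or the replicate number as a block, and without Ebf1-KO library 2 or WT library 1, 1 fell. Without WT library 1 none rose, and 2 rose without Ebf1-KO library 1 or with no filter on low values.

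Solute carriers, the transporters of nutrients and ions, rose in 48 of 211 cases (22.7%) and fell in 24 (11.4%). Slc16a10, a transporter of aromatic amino acids, was at 1334, 1773 and 2033 in the 3 Ebf1-KO libraries, against 3.65, 1.76 and 1.11 in the 3 WT libraries (log2 fold change 8.83, standard error 0.24, adjusted p = 1.17e-13 by limma). Slc8a1, the sodium-calcium exchanger, was at 675, 312 and 362 in the 3 Ebf1-KO libraries, against 0.280, 0.704 and 0.317 in the 3 WT libraries (7.92), and Slc22a3, an organic cation transporter, averaged 264 ± 15.3 in Ebf1-KO and 0.921 ± 0.585 in WT (6.85). Slc1a5, a glutamine transporter, was at 533, 535 and 677 in the 3 Ebf1-KO libraries, against 2458, 1812 and 1976 in the 3 WT libraries (-2.14). Of 32 calcium and purinergic signalling genes 11 rose and 5 fell. P2ry14, a receptor of UDP-glucose on progenitors, was at 613, 745 and 783 in the 3 Ebf1-KO libraries, against 0, 0.704 and 0.159 in the 3 WT libraries (log2 fold change 8.84, standard error 0.22, adjusted p = 5.45e-14 by limma), and Atp2b4, a calcium pump of the plasma membrane, averaged 343 ± 111 in Ebf1-KO and 1.71 ± 0.279 in WT (6.64). Entpd1, the ecto-nucleotidase CD39, averaged 2.34 ± 1.18 in Ebf1-KO and 102 ± 14.4 in WT (-5.31), and Ryr2, a calcium release channel, 0.179 ± 0.183 in Ebf1-KO and 46.97 ± 7.87 in WT (-5.65).

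Of 24 genes of lysosomal proteases and membrane proteins 8 rose and 5 fell. Ctsl, cathepsin L, was at 944, 835 and 966 in the 3 Ebf1-KO libraries, against 2.52, 3.17 and 3.81 in the 3 WT libraries (log2 fold change 7.48, standard error 0.17, adjusted p = 1.90e-14 by limma), and Cst7, a cathepsin inhibitor of cytotoxic cells, averaged 205 ± 45.4 in Ebf1-KO and 24.7 ± 10.3 in WT (2.76). Lgmn, the asparaginyl protease legumain, averaged 6.01 ± 2.43 in Ebf1-KO and 79.4 ± 4.53 in WT (-3.88).

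Regulators of G proteins and small GTPases were counted next. Of 11 tested RGS genes, which shorten G protein signals, 6 rose and 1 fell, or 2 fell with quantile normalization, edgeR or DESeq2 or without WT library 1. Rgs18, known from platelets and myeloid cells, was at 447, 511 and 429.5 in the 3 Ebf1-KO libraries, against 10.7, 31.7 and 19.5 in the 3 WT libraries (log2 fold change 4.23, standard error 0.29, adjusted p = 2.51e-09 by limma), and Rgs1 averaged 90.4 ± 40.6 in Ebf1-KO and 0.199 ± 0.173 in WT (5.87). Of 42 Rab GTPases 7 rose (16.7%) and 4 fell (9.52%), shares close to those of all tested genes (15.4 and 11.4%). One that rose was Rab27a, which brings lytic granules to the membrane, at 1103, 1116 and 1181 in the 3 Ebf1-KO libraries, against 85.8, 116 and 145 in the 3 WT libraries (log2 fold change 3.01, standard error 0.17, adjusted p = 2.83e-10 by limma). Of 10 tested tetraspanins 3 rose (30%) and none fell, beside 15.4% and 11.4% of all tested genes. With TMM, quantile normalization, edgeR, DESeq2, only the 6 libraries or the replicate number as a block, and without Ebf1-KO library 2 or WT library 1, 1 fell. Tspan2 was at 2592, 1893 and 1981 in the 3 Ebf1-KO libraries, against 16.3, 22.2 and 19.3 in the 3 WT libraries (log2 fold change 6.42, standard error 0.15, adjusted p = 3.64e-14 by limma). Rasgrp1, an exchange factor that activates Ras downstream of antigen receptors, was at 1.65, 1.83 and 0.862 in the 3 Ebf1-KO libraries, against 842, 888 and 1044 in the 3 WT libraries (log2 fold change -8.89, standard error 0.22, adjusted p = 1.18e-13 by limma).

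Brakes on MAP kinase signalling tended the other way, with 5 of 19 fallen and 1 risen, or 2 risen with only the 6 libraries, with no filter on low values, with a block for the replicate number, or without any single Ebf1-KO library or WT library 3. With a pseudocount of 5, 3 fell. In the main fit 26.3% of this list fell and 5.26% rose, beside 11.4% and 15.4% of all tested genes. Spry2, an inhibitor of growth factor signals, averaged 2.402 ± 0.908 in Ebf1-KO and 49.8 ± 6.33 in WT (-4.23), and Dusp6, a phosphatase of ERK, 22.1 ± 4.95 in Ebf1-KO and 69.7 ± 29.7 in WT (-1.84). Dusp18 averaged 62.8 ± 12.7 in Ebf1-KO and 1.27 ± 0.507 in WT (4.51).

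Of 23 tested enzymes of DNA methylation and histone deacetylation 4 rose and 3 fell. Tet1, which oxidises methylated cytosine, was at 1527, 1835 and 1881 in the 3 Ebf1-KO libraries, against 2.52, 3.88 and 8.09 in the 3 WT libraries (log2 fold change 8.03, standard error 0.26, adjusted p = 7.65e-13 by limma). Dnmt3b, a de novo DNA methyltransferase, was at 1762, 1760.3 and 2130.3 in the 3 Ebf1-KO libraries, against 154, 208 and 203 in the 3 WT libraries (log2 fold change 3.02, standard error 0.16, adjusted p = 1.10e-10 by limma). Uhrf2, a reader of hemimethylated DNA, was at 59.7, 33.7 and 35.7 in the 3 Ebf1-KO libraries, against 964, 944 and 937 in the 3 WT libraries (log2 fold change -4.79, standard error 0.18, adjusted p = 1.62e-11 by limma). The maintenance methyltransferase Dnmt1 had the most reads of the members not called (-0.26, adjusted p = 0.787).

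Imprinted genes were divided, with 4 of 21 risen (19.05%) and 7 fallen (33.3%), beside 15.4% and 11.4% of all tested genes. Igf2r, the receptor that clears IGF2, was at 3047, 2920.1 and 3022 in the 3 Ebf1-KO libraries, against 394, 505 and 528 in the 3 WT libraries (log2 fold change 2.36, standard error 0.14, adjusted p = 1.85e-10 by limma), and Airn, the antisense transcript that overlaps it, averaged 134 ± 28.9 in Ebf1-KO and 41.9 ± 7.35 in WT (1.33). Whether counting used strand is not given, so reads of Igf2r and Airn may not be separate. Peg3 was at 0.275, 0 and 0 in the 3 Ebf1-KO libraries, against 174, 255 and 329.7 in the 3 WT libraries (log2 fold change -8.13, standard error 0.24, adjusted p = 5.69e-13 by limma), and Grb10, an adaptor that restrains insulin signals, at 74.2, 65.2 and 67.8 in the 3 Ebf1-KO libraries, against 429.9, 602 and 697 in the 3 WT libraries (-3.32). Magel2 was at 0 in all Ebf1-KO libraries and at 7.87 in WT, at least 31.9-fold lower. Of 52 replication histones 21 fell and 1 rose (list median -0.96, none risen with quantile normalization, with a pseudocount of 5 or without Ebf1-KO library 1); 13 fell without WT library 1 or with no filter on low values. Hist1h2ak averaged 261 ± 6.37 in Ebf1-KO and 575 ± 29.2 in WT (-1.44) and Hist2h2ac 71.1 ± 4.07 in Ebf1-KO and 155 ± 16.2 in WT (-1.41). Histone genes are near copies, so reads may be split between them.

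Large falls were also found in genes of varied function that are on none of the lists, with little RNA left in Ebf1-KO. Cplx2, a complexin of regulated exocytosis, was at 0.550, 0.366 and 0.172 in the 3 Ebf1-KO libraries, against 2011, 2409 and 2696 in the 3 WT libraries (log2 fold change -11.07, standard error 0.23, adjusted p = 1.90e-14 by limma). Crhbp, which binds corticotropin-releasing hormone, was at 0.275, 0 and 0 in the 3 Ebf1-KO libraries, against 1458, 1704 and 1687 in the 3 WT libraries (-10.85), and Gldc, the glycine decarboxylase of mitochondria, at 0, 0.366 and 0.172 in the 3 Ebf1-KO libraries, against 1001, 1245 and 1469 in the 3 WT libraries (-10.34). Alpl, tissue-nonspecific alkaline phosphatase, was at 0, 0 and 0.172 in the 3 Ebf1-KO libraries, against 889, 1029 and 1097 in the 3 WT libraries (-10.20). Pde2a, a phosphodiesterase stimulated by cyclic GMP, averaged 3.36 ± 0.463 in Ebf1-KO and 3481 ± 355 in WT (-9.95). Clgn, a chaperone of the endoplasmic reticulum, averaged 0.305 ± 0.280 in Ebf1-KO and 661 ± 38.3 in WT (-9.32), and Edaradd, the adaptor of the ectodysplasin receptor, 2.26 ± 0.467 in Ebf1-KO and 1336 ± 46.6 in WT (-8.99).

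Large rises likewise spanned many functions. Cd34, a sialomucin of progenitors, was at 2065, 2144 and 2259.96 in the 3 Ebf1-KO libraries, against 0.841, 0.704 and 0.793 in the 3 WT libraries (log2 fold change 9.94, standard error 0.19, adjusted p = 7.00e-15 by limma). Tnni1, slow skeletal troponin I, was at 1120.4, 1277 and 1546 in the 3 Ebf1-KO libraries, against 0.280, 0.704 and 0.317 in the 3 WT libraries (log2 fold change 9.53, standard error 0.27, adjusted p = 1.86e-13 by limma). Atp8b4, a lipid flippase, was at 928, 652 and 709.6 in the 3 Ebf1-KO libraries, against 0.561, 0 and 0.159 in the 3 WT libraries (8.97), and Osbpl3, an oxysterol-binding protein, at 1007, 1456 and 1544 in the 3 Ebf1-KO libraries, against 1.402, 1.06 and 1.27 in the 3 WT libraries (8.89). Tns1, tensin 1 of focal adhesions, averaged 2203 ± 55.1 in Ebf1-KO and 2.97 ± 1.32 in WT (8.87), and Mn1, a co-activator known from myeloid leukaemia, 831 ± 111 in Ebf1-KO and 0.511 ± 0.529 in WT (8.85). Mrgpra9, a member of the Mas-related receptor family, was at 379.5, 443 and 583 in the 3 Ebf1-KO libraries, against 0 in all 3 WT libraries, which is at least 1986-fold higher. The paired immunoglobulin-like receptors Pira2 (8.58) and Pira1 (8.43) are near copies and may share reads.

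Called genes with many reads changed by differing amounts, from little over the 2-fold minimum to the large changes of Igf2 and Pou2af1 given elsewhere. Cdk6, the kinase of the G1 phase, was at 14893, 14575 and 16924 in the 3 Ebf1-KO libraries, against 3571, 6131 and 6046 in the 3 WT libraries (log2 fold change 1.29, standard error 0.20, adjusted p = 6.46e-06 by limma). Bcl2, the inhibitor of apoptosis, was at 5329, 6637 and 8307 in the 3 Ebf1-KO libraries, against 272, 381 and 396 in the 3 WT libraries (log2 fold change 3.96, standard error 0.18, adjusted p = 2.92e-11 by limma). The ubiquitin ligase Nedd4 averaged 11488 ± 1033 in Ebf1-KO and 3824 ± 735 in WT (1.30), and Senp6, a SUMO protease, 7888 ± 713 in Ebf1-KO and 2548 ± 468 in WT (1.34). Itga4, the alpha-4 integrin, averaged 6434 ± 1392 in Ebf1-KO and 2419 ± 302 in WT (1.09) and was not called without WT library 3 (0.96, adjusted p = 4.73e-05). In the other direction, Ucp2, a carrier of the inner mitochondrial membrane, was at 1915, 1992 and 2499 in the 3 Ebf1-KO libraries, against 9159, 10555 and 11114 in the 3 WT libraries (log2 fold change -2.58, standard error 0.20, adjusted p = 1.38e-07 by limma). Atp1b1, a subunit of the sodium pump, was at 323, 459 and 472 in the 3 Ebf1-KO libraries, against 6919.6, 6684 and 7696 in the 3 WT libraries (log2 fold change -4.41, standard error 0.16, adjusted p = 1.08e-11 by limma), and Serinc3, a membrane protein that restricts viruses, at 6823, 7016 and 7838 in the 3 Ebf1-KO libraries, against 13277, 13870.1 and 14752 in the 3 WT libraries (-1.26). Smarca4, the ATPase of the BAF chromatin remodelling complex, averaged 2726 ± 254 in Ebf1-KO and 6880.1 ± 299 in WT (-1.65), and Hmgb2, a chromatin protein of dividing cells, 4133 ± 673 in Ebf1-KO and 7429 ± 189.5 in WT (-1.16). Mki67, a proliferation marker, averaged 14315 ± 2304 in Ebf1-KO and 24644 ± 911 in WT (-1.10) and was not called with quantile normalization (-0.96, adjusted p = 1.45e-05), with no filter on low values (-0.98, adjusted p = 0.00366) or without Ebf1-KO library 1 (-0.98, adjusted p = 0.00817).

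Some called genes lay side by side; how many runs chance alone gives was not computed. Runs of at least 4 neighbouring tested genes called in the same direction numbered 44 for rises, with 226 genes (11.8% of the risen), and 31 for falls, with 158 genes (11.2% of the fallen). The longest risen run held 12 genes and spanned the HOXA cluster, chr6:52162417-52249769 (mm10), from Hoxa2 to Hoxa11os. Some of its members overlap on the genome, as Hoxa3 and Hoxa5 do, so they may share reads. A run of 5 on chr1:40076212-40551705 joined Il1r2, Il1r1, Il18r1 and Il18rap with Gm16894, and a run on chr1:60483185-62818692 joined Cd28, Ctla4, Icos, Raph1 and Nrp2. A run of 4 fallen genes on chr3:142496934-142638008 held Gbp5, Gbp7, Gbp3 and Gbp2, and another on chr10:75923222-75949646 ended with Vpreb3. Over all tested genes 15.4% rose and 11.4% fell. The longest fallen run, 22 genes, was the gamma protocadherin cluster on chr18:37661945-37841872, whose members share exons, so their counts are not separate measurements. The same holds for a risen run of 8 Ugt1a genes.

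EBF1 peaks that the submitters took from external ChIP data, per the file headers, were then set beside the calls. Of the 1413 fallen genes 50.6% had at least 1 of the 9207 autosomal EBF1 peaks assigned to them, of the 1920 risen genes 39.01%, and of all 12436 tested genes 36.6%. The share grew with the size of the fall, with 45.3% for falls of 2 to 4-fold, 49.7% for 4 to 16-fold and 64.9% over 16-fold. With the size of the rise it went the other way, with 43.03, 37.1 and 34.3%. At least 3 peaks were found at 9.27% of fallen genes, 4.74% of risen genes and 3.79% of all tested genes. Restricted to peaks within 10 kb of a start site, the shares were 31.7% for fallen, 22.03% for risen and 24.6% for all tested genes. These shares are a description, and gene length was not taken into account.

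Loss of accessibility was more frequent at peaks of fallen genes. At peaks of risen genes it was about as frequent as at peaks of genes not called. ATAC signal, in tags per 10000000, was lower in every Ebf1-KO library than in every WT library at 54.7% of all EBF1 peaks and higher at 2.95%. At peaks of fallen genes the shares were 73.1% and 1.51%, with a median log2 ratio of -1.64 (Ebf1-KO over WT, 0.5 added). At peaks of risen genes they were 47.9% and 5.61% (median -0.64), and at peaks of genes not called 48.9% and 2.74% (median -0.64).

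**Figure D5:**
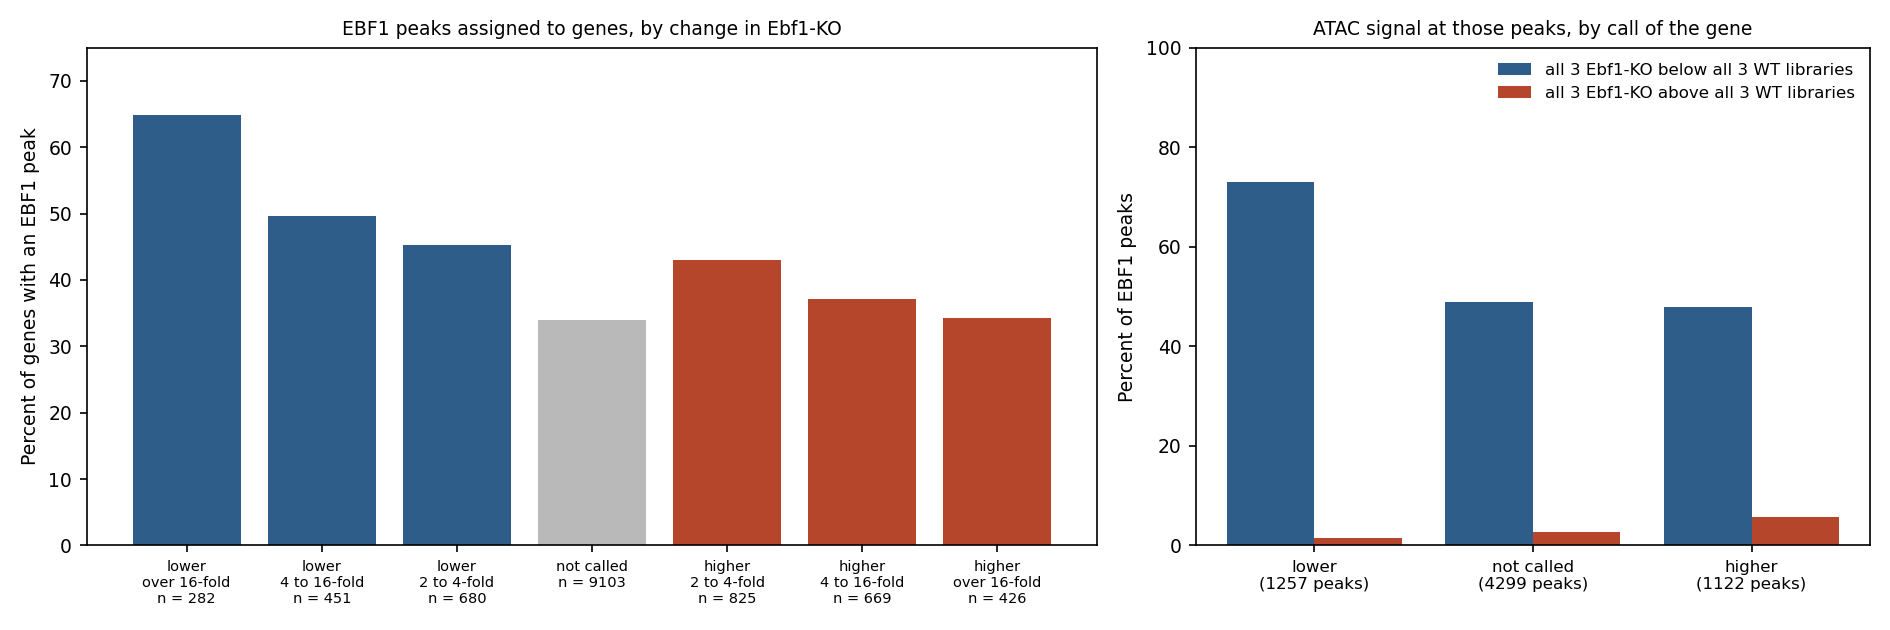
Left, percent of tested genes with at least 1 assigned EBF1 peak, by direction and size of the RNA change in Ebf1-KO against WT; right, percent of EBF1 peaks where all 3 Ebf1-KO ATAC libraries lay below, or above, all 3 WT libraries, by the call of the assigned gene. The share of genes with a peak is 64.9% for falls over 16-fold and 34.3% for rises over 16-fold, and loss of signal is found at 73.1% of peaks of fallen genes.

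Peaks near 5 genes, picked after their values were seen, show how the sites differ. Each is printed 5′ to 3′ on the plus strand of mm10, up to 300 bases, and is the EBF1 peak of highest WT ATAC signal assigned to its gene. Capitals mark the palindrome of TCCC and GGGA with 2 bases of any kind between them, which reads the same on both strands, or, in Pou2af1, where it has no match, the shorter CCNNGGGA on either strand.
Pou2af1 promoter, chr9:51213082-51213370: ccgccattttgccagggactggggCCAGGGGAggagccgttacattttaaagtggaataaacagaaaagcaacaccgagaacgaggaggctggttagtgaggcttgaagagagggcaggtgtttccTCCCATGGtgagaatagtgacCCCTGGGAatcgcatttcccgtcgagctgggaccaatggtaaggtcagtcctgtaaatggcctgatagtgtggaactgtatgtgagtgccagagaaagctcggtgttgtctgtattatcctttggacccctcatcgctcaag
Cplx2, chr13:54322408-54322678: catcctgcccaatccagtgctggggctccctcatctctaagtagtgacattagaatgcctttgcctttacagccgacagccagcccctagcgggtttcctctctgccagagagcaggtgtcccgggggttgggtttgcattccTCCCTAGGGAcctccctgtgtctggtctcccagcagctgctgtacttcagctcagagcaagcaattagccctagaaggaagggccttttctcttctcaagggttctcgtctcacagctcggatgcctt
Cd22 promoter, chr7:30878912-30879211: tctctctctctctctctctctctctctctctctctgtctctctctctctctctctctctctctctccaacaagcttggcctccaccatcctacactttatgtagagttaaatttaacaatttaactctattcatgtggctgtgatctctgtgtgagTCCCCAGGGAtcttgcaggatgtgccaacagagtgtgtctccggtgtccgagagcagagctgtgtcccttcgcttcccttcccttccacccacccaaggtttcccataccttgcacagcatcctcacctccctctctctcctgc
Ccr9, chr9:123763070-123763340: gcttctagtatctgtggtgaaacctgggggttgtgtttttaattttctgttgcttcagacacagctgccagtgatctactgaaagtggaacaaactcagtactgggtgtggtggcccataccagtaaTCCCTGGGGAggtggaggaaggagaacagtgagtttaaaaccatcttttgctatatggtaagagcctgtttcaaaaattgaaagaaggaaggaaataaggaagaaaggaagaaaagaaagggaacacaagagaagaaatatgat
Rasgrp1, chr2:117447061-117447331: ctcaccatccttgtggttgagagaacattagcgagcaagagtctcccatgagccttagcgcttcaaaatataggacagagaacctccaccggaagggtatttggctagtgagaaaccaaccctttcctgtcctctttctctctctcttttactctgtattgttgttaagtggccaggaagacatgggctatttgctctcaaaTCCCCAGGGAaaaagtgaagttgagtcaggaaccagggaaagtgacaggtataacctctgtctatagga

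At the Pou2af1 peak, centred 464 bp before the start site, ATAC signal was 0.780, 0.610 and 1.28 in the Ebf1-KO libraries, against 34.6, 41.3 and 41.4 in the WT libraries. The Cplx2 peak, 48806 bp before the start, had 3.12, 1.51 and 0.640 in Ebf1-KO, against 32.01, 20.8 and 29.0 in WT. The Cd22 peak, 34 bp before a start given by the peak annotation, had 1.17, 2.12 and 0.640 in Ebf1-KO, against 28.1, 17.95 and 22.3 in WT. This peak lies inside the Cd22 gene as used for RNA, chr7:30865404-30880342. At these 3 fallen genes accessibility was low in every Ebf1-KO library and the groups did not overlap. Choosing each peak by its WT signal favours WT above Ebf1-KO, and other peaks of Cplx2 and Cd22 are not given here. Over all EBF1 peaks, 54.7% had every Ebf1-KO library below every WT library. Ccr9, a chemokine receptor of thymus-seeding progenitors, rose, with RNA levels of 11636, 9772 and 10373 in the 3 Ebf1-KO libraries, against 21.03, 14.8 and 16.3 in the 3 WT libraries. Its peak, 4006 bp before the start, nevertheless had less ATAC signal, with 6.23, 6.35 and 9.60 in Ebf1-KO, against 27.4, 11.97 and 15.3 in WT. Rasgrp1 fell, while the peak assigned to it, 104319 bp away, had more ATAC signal, with 20.6, 26.3 and 25.6 in Ebf1-KO, against 7.19, 6.27 and 6.21 in WT.

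The share of sequences with the palindrome was counted by class, with no test made. It stood in 24.7% of peaks of fallen genes, 27.01% of peaks of risen genes and 25.1% of all EBF1 peaks. At peaks of fallen genes, ATAC signal was lower in every Ebf1-KO library in 64.6% with the palindrome and 75.9% without it. For risen genes these shares were 43.6 and 49.5%, for genes not called 52.9 and 47.7%, and for all peaks 52.4 and 55.4%. In promoters, from 250 bases before to 50 after each gene's start, it was found in 26 of 1413 fallen genes (1.84%), 22 of 1920 risen genes (1.15%) and 0.973% of all tested genes. Promoters of genes fallen over 16-fold held it in 10 of 282 cases (3.55%) and those of genes risen over 16-fold in 3 of 426 (0.704%). Counted per gene, 18.7% of fallen, 13.85% of risen and 11.3% of all tested genes had an EBF1 peak with the palindrome. The shorter CCNNGGGA was found in 28.2% of fallen, 30.1% of risen and 26.3% of all promoters. Both kinds of called gene had promoters poorer in CpG: the median ratio of observed to expected CpG was 0.618 in fallen, 0.639 in risen and 0.762 in all tested genes. The ratio was under 0.6 in 48.2% of fallen, 45.7% of risen and 30.1% of all tested promoters.

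Values in Pax5-KO cells are set beside those of Ebf1-KO for some of these genes, with the same WT libraries as controls in both. Cd79a was at 227 ± 59.7 in Pax5-KO, Pou2af1 at 7872 ± 1772, Enpep, the glutamyl aminopeptidase BP-1, at 4.19 ± 1.74 and Vpreb1 at 1007 ± 361. In Ebf1-KO these genes averaged 1.88, 9.84, 2.06 and 1.73. Of the genes that rose in Ebf1-KO, Sox6 was at 1.302 ± 0.763 in Pax5-KO, Tet1 at 383 ± 57.6, Hoxa9 at 97.5 ± 11.1, Jchain at 12590.4 ± 604 and Il18r1 at 95.6 ± 4.32.

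The submitters' own comparison was deposited as lists per transcript. The authors' deposited tables held 1889 autosomal genes lower and 2446 higher in Ebf1-KO, each with a log2 change of at least 1 in size and an adjusted p under 0.05. Of the genes called here, 1408 of 1413 fallen (99.6%) and 1916 of 1920 risen (99.8%) were in the table of the same direction, which is 74.5% of the authors' deposited lower table and 78.3% of the authors' deposited higher table. Those 2 shares include genes not tested here: 1511 of the authors' lower genes and 2030 of the higher were tested. Of the fallen genes 1 was in the authors' higher table, and no risen gene was in the lower table.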

How the data were processed

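Values in the gene table are a signal made by the authors: reads in exons per gene, counted with HOMER on mm10 and scaled to 10000000 mapped reads per library, per the file headers. TopHat, Bowtie2, HOMER, edgeR and DESeq2 are named in the submitters' processing notes, and no version is given for any of them. All values came out as whole reads once divided by the value of 1 read per library (100% within 0.1 up to 100 reads), and reads recovered in this way were used for the filter and for edgeR and DESeq2 as alternatives. Scaling to mapped reads lets the share of reads in exons move all genes together, so changes were read against the median gene.

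Log2(value + 1) was fitted with limma 3.58.1 (trend, R 4.3.3) over 9 libraries with a mean per genotype. Genes had to pass edgeR 4.0.16 filterByExpr, which left 12839, and p-values were adjusted by Benjamini-Hochberg over all of them. Tested on simulated data of 11781 genes, changes of 4-fold were called in 98 to 100% of cases and changes of 2-fold in 50 to 52%. A true 2-fold change lies on the minimum asked for, so a share near 50% follows from that minimum. Only 50 genes were changed per fold, none of them low in WT, so recovery of genes nearly silent in WT was not measured. Alternatives were TMM scaling, quantile normalization, pseudocounts of 0.5 and 5, no filter, edgeR, DESeq2 1.42.0, 6 libraries only, a replicate block, each library left out, and other minimum folds. Libraries with the same number deviated together across genotypes (r = 0.23, 0.12 and 0.29, each best with its own number), which pairs them by the data alone, since the labels do not say what the number marks.

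Members and gene lists were chosen with earlier results of these data known. Named genes were Ebf1 and Pax5, the called EBF1 targets, the 20 largest rises and falls with a group mean of at least 100 and groups apart, the 10 called genes with the most reads in each direction, and up to 5 called members per list and direction plus the most abundant not called. Genes named only as members of a run of neighbours were picked after their values were seen. Some genes covered by this rule are not reported here. The authors' deposited log2 changes and p-values were used only to count genes. ATAC values are a signal of tags in each peak scaled by the authors to 10000000 tags, per the file headers, and the deposited peak score was used only to rank peaks. Sequences came from RefSeq GRCm38.p6, the same build as mm10, read with pysam 0.24.0.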

Additional observations from a re-analysis of the deposited data

How the results depend on the processing

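The numbers of fallen and risen genes, 1413 and 1920, changed little with the processing. They were 1428 and 1941 with TMM scaling, 1578 and 1803 with quantile normalization, 1427 and 1983 with a pseudocount of 0.5, 1212 and 1557 with a pseudocount of 5, 1509 and 2348 with no filter, 1488 and 2003 with edgeR, 1470 and 1986 with DESeq2, and 1402 and 1874 with only the 6 libraries. With the replicate number as a block they were 1448 and 1921, every gene called before was called again, and no named gene's call changed; list counts that moved by over 1.5 times are given beside them. Leaving out 1 library gave 1401 to 1494 fallen and 1939 to 2020 risen genes. The size asked for mattered more: with no minimum fold 1757 genes were lower and 5132 higher, and with a minimum of 4-fold 733 and 1095. Of the 328 called genes covered by the naming rule, 299 kept call and direction in every alternative that tested them, none reversed, and 29 lost the call in at least 1; the other minimum folds were run on the counts only, and named genes changed by less than 4-fold are not called at that minimum. The share of genes with an EBF1 peak was 31.7% of fallen, 22.03% of risen, 24.0% of not called and 24.6% of all tested genes within 10 kb, against 50.6, 39.01, 33.9 and 36.6% with all peaks. For peaks with a score of at least the median, 13.5, it was 34.75, 22.9, 17.4 and 20.2%. Within 10 kb the risen genes thus lay below all tested genes, and with the other choices above them. Depth limits low genes: a group at 0 allows up to 0.247 reads per 10000000 mapped reads in Ebf1-KO and 0.236 in WT (3 reads over the group, counting error only). The causes of these shifts were not tested.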
